A study of Homo sapiens with 3 samples.

Results

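The 46 transcripts described here encode core components of the spliceosome and were examined for binding by the splicing factor RBM17. They were divided by the particle their protein belongs to into 5 subcomplexes, namely the Sm ring (7 genes), the U1 snRNP (6), the U2 snRNP (7), the tri-snRNP with B complex proteins (15) and Prp19-related proteins of the catalytic stage (11). A replicate 2 cluster named for the gene was found for 44 of the 46, out of 10872 genes with such a cluster. No replicate 2 cluster carried the GENCODE v44 identifier of SNRPB2, a U2 snRNP protein, or CWC25, a step one splicing factor. Of the 10872 genes named in replicate 2, 10423 had an identifier in GENCODE v44. A gene named there by another identifier would be missed, so absence of clusters in these genes is not established. For each gene, replicate 1 clusters and reproducible peaks were taken on the same strand within the span of its replicate 2 clusters.

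The cells were K562, a long-established human line of chronic myeloid leukemia origin, and binding was measured by eCLIP with 2 RBM17 immunoprecipitations and 1 size-matched input. This method joins proteins covalently to their RNA by ultraviolet light, pulls down the protein, and sequences the RNA fragments that come with it beside an input of the same size range. For each sample 20000000 cells received 400 mJ/cm2 at 254 nm, 10 µg of antibody was used, and 2% of the material served as input. The cells carried no knockdown or treatment, so the comparison is of immunoprecipitate with input. Of genes that mark the erythroid character of K562, GATA1, TAL1, LMO2, HBG1 and HBG2 had replicate 2 reads, from 69 for GATA1 to 1553 for HBG2. CD3E, a T cell gene, and ALB, a liver gene, had 0, and PTPRC, a leukocyte gene, had 102.

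The spliceosome is built anew on each intron from small nuclear ribonucleoproteins (snRNPs). U1 recognizes the 5' splice site and U2 the branch point, the U4/U6.U5 tri-snRNP then joins, and Prp19-related proteins accompany the rearrangements that lead to catalysis. Sm proteins form the ring around the RNA of each of these particles except U6. RBM17, also known as SPF45, is a splicing factor associated with the U2 snRNP that acts in 3' splice site recognition, and many splicing factors are regulated through splicing of their own transcripts.

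The deposited files carry different measures. Replicate 1 gives for each cluster the log2 fold over the input and a −log10 p, and replicate 2 gives a number of reads in each cluster and a p of the peak caller that takes no account of the input. The list of 866 reproducible peaks gives 1 log2 fold for both replicates together. A replicate 1 cluster is called passing here when its log2 fold is at least 3, its −log10 p is at least 3 and it lies in the span of exactly 1 gene. Replicate 1 held 137095 clusters. Replicate 2 held 119066 with 1374221 reads, where an interval listed under several genes is counted for each. Of these, 6965 reads in 543 clusters were in the 44 transcripts. The depth of replicate 1 and of the input is unknown. No fold has a replicate error, because only 1 of the replicates has a fold of its own.

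Core spliceosome transcripts were well covered by reads, and only LUC7L held reproducible peaks. Their median was 60.5 reads per gene (3 to 1563), against 33 in all genes with a replicate 2 cluster. Per kilobase of gene the median was 3.16 reads against 1.25, and on each of these scales 33 of the 44 lay above the median of all genes. Reads in clusters depend on how much of a transcript the cells hold as well as on binding, and the 2 cannot be told apart here.

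Reproducible peaks were present in 1 of 44 transcripts (2.27%), against 4.07% of all 10872 genes. Among the 13 members with at least 100 reads the count was 1, where 16.3% of all genes of that depth had a peak, and among the 31 members with fewer reads it was 0, where 0.648% of all such genes had one. The count remained 1 for peaks on a cluster named for the gene (4.06% of all genes), for peaks of log2 fold at least 4 (2.33%) and for peaks of −log10 p at least 5 (2.35%). The share of core transcripts with a peak was thus not above that in all genes under any of these rules.

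Passing clusters of replicate 1 gave a different count, with 14 of 44 transcripts (31.8%) holding at least 1, against 14.8% of all genes. At 100 reads or more they were found in 10 of 13 transcripts (76.9%) against 41.6% of all genes, and below 100 reads in 4 of 31 (12.9%) against 7.3%. The share was higher than the background on each side of this depth. The count was 14 at a log2 fold of at least 2 (17.5% of all genes) or with clusters in the span of several genes (16.2%), 12 at a −log10 p of at least 5 (9.36%), 8 at a log2 fold of at least 4 (8.75%) and 9 where the cluster had to overlap one of replicate 2 (10.3%). All of the 14 except LUC7L had no reproducible peak, a combination shared by 1210 of the 1609 genes with a passing cluster in the whole series. The 52 passing clusters made up 8.13% of the 640 replicate 1 clusters in the members, compared with 5.67% of the 114940 clusters of all genes. Genes with 10 or more were 2 of the 44, PRPF8 and SART1, against 1.54% of all genes. Passing clusters were unevenly spread, since PRPF8, SART1 and 1 of the genes with 5 held 29 of them (55.8%).

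**Figure D1:**
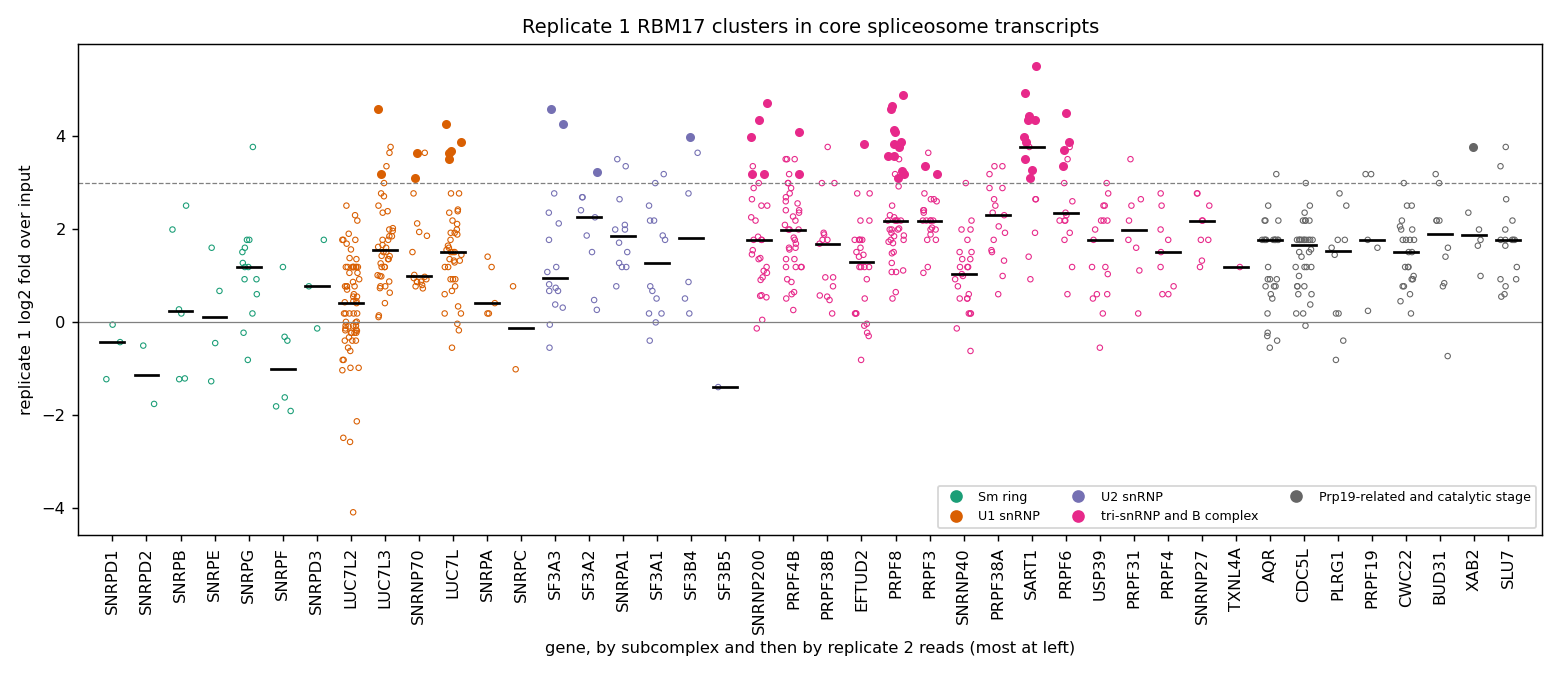
Each point is a replicate 1 cluster, with its log2 fold over the input on the vertical axis and its gene on the horizontal axis, genes being ordered by subcomplex and then by replicate 2 reads. Black lines are medians, filled points are passing clusters and the dashed line is a log2 fold of 3; for LUC7L2 all clusters in the span are drawn although all but 1 also lie in the span of another gene, and the SART1 median of 3.77 stands above every other gene's.

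The U1 snRNP genes held the most reads and the only reproducible peaks, in LUC7L. Human LUC7L, LUC7L2 and LUC7L3 are relatives of yeast Luc7, a U1 snRNP protein that acts in the choice of 5' splice sites. LUC7L held 435 reads in 29 replicate 2 clusters, more than 96.9% of all genes, and 10.7 reads per kilobase. Its 42 replicate 1 clusters had a median log2 fold of 1.51, and 5 of them passed.

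Of the 4 peaks in LUC7L, 3 lay close together at the 5' end of the region with clusters (chromosome 16, minus strand, hg19). The peak with the highest fold spanned 85 bp, from 279164 to 279248, with a log2 fold of 4.56 and a −log10 p of 17.4. The replicate 1 cluster with the same ends had a log2 fold of 4.28, and in replicate 2 the interval was met by a cluster of 81 reads. The adjoining 26 bp, from 279138 to 279163, formed a separate peak with a log2 fold of 3.80 and a −log10 p of 4.73, met by the same replicate 2 cluster. These adjoining peaks therefore count a single replicate 2 cluster under separate entries. The peak from 278886 to 278944, 59 bp long, had a log2 fold of 3.96 and a −log10 p of 7.72, and the replicate 2 cluster that met it had 50 reads.

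The remaining LUC7L peak lay near the other end of the gene, from 242924 to 242975, with a log2 fold of 3.34 over 52 bp and a −log10 p of 3.78. It was met by a replicate 2 cluster of 14 reads. In the study's peak annotation this peak lies at a 5' splice site and in coding sequence, whereas the others lie in the proximal intron, and the one with the highest fold also at a 5' splice site. Compared with all 866 peaks, whose median log2 fold was 3.80, the LUC7L peaks ranged from the 24.4th to the 80.0th percentile. They were of ordinary height for a reproducible peak.

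Replicate 1 ranked the LUC7L peaks somewhat differently from the combined values. Its log2 fold was 3.69 at the peak near 242924, higher than the combined 3.34, and was 3.65, 3.51 and 4.28 at the others, each lower than the combined value. Reads in LUC7L were concentrated at the same end, with 197 of 435 (45.3%) in 4 replicate 2 clusters within 1000 bp of the 5' end of its span. The 7 replicate 1 clusters in that window had a median log2 fold of 2.77 and a lowest of 1.29. A passing replicate 1 cluster from 240423 to 240446 (log2 fold 3.89, −log10 p 3.26) was met by no replicate 2 cluster and is not among the peaks.

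**Figure D2:**
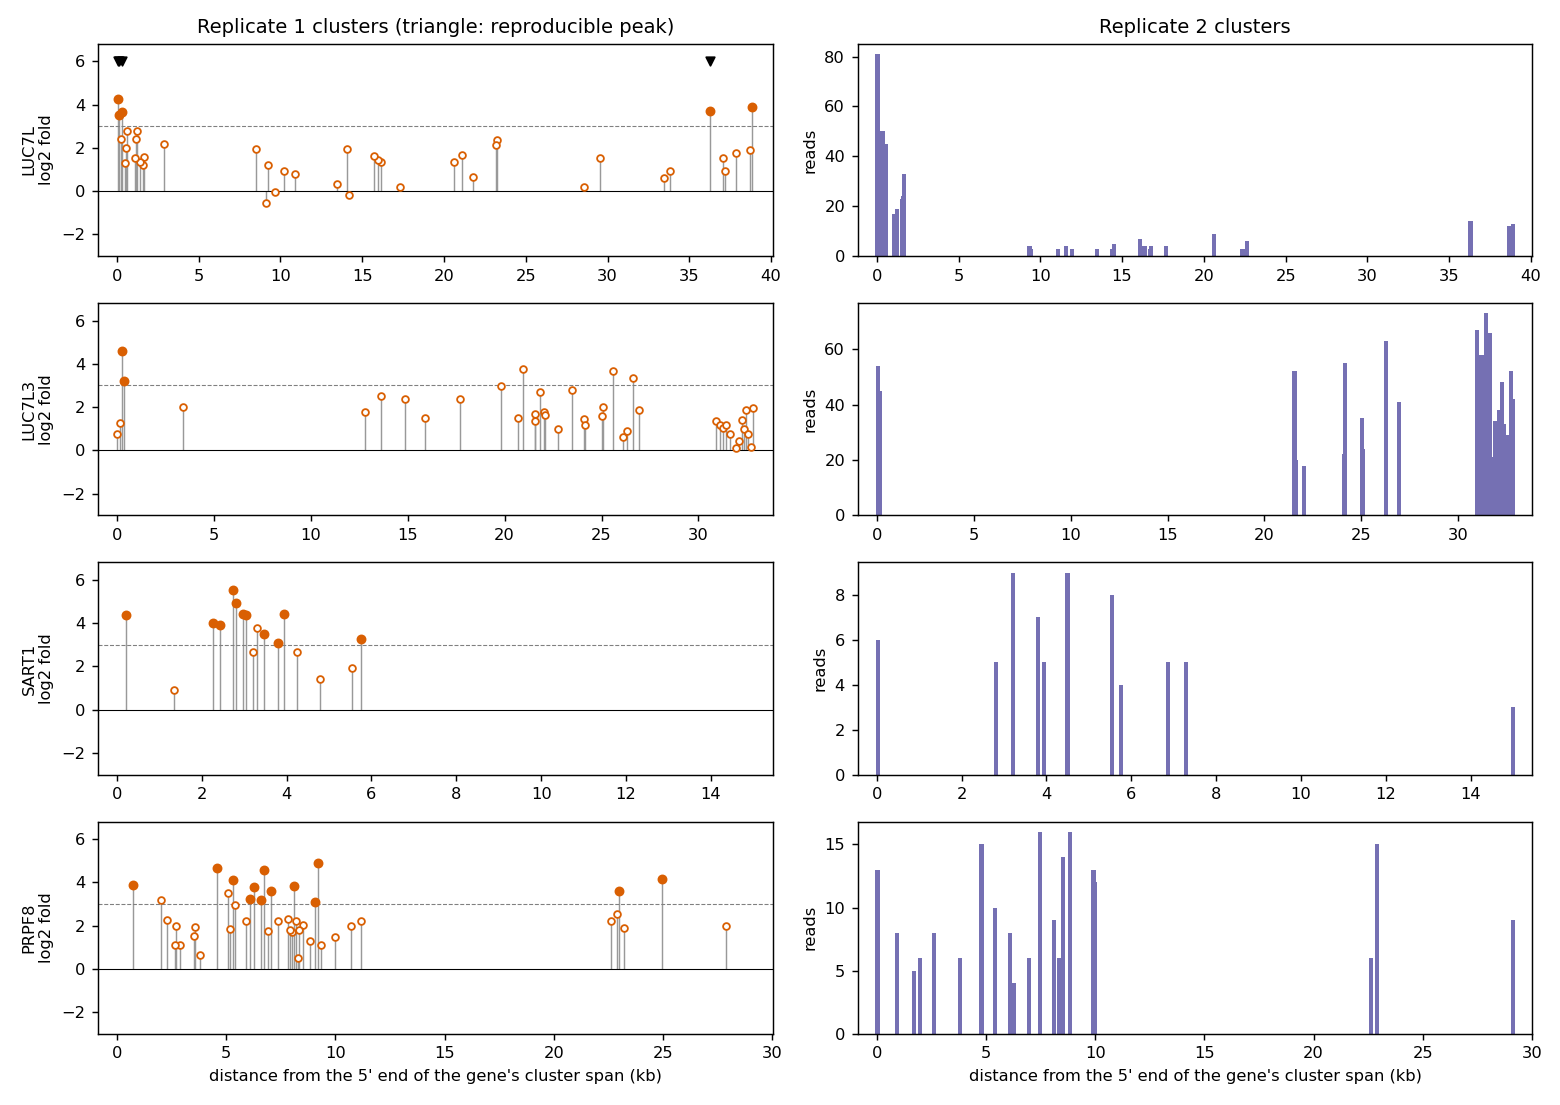
Positions of clusters are shown in LUC7L, LUC7L3, SART1 and PRPF8 as kilobases from the 5' end of each gene's replicate 2 clusters, with replicate 1 log2 folds at left (filled, passing; dashed line, log2 fold 3) and replicate 2 reads per cluster at right. LUC7L reads and passing clusters sit mostly at the 5' end, LUC7L3 reads mostly at the 3' end where no cluster passes, and SART1 passing clusters lie within 5746 bp of the 5' end with at most 9 reads in any replicate 2 cluster.

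LUC7L3 had more reads than LUC7L and no peak. It held 1110 reads in 26 replicate 2 clusters, 30.3 reads per kilobase, and 24 of the 26 (92.3%) were met by a replicate 1 cluster. All 42 of its replicate 1 clusters lay above the input, the lowest at a log2 fold of 0.11 and the median at 1.56. Most of the reads, 681 or 61.4%, lay in the last 2500 bp of its span, where the 13 replicate 1 clusters had a median log2 fold of 1.01 and a highest of 1.97. Its 2 passing clusters lay near the 5' end instead, on the plus strand of chromosome 17 from 48797251 to 48797289 (log2 fold 4.58) and from 48797366 to 48797419 (3.19), and were met by no replicate 2 cluster. The part of LUC7L3 with most reads and the part with the highest folds were thus not the same.

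LUC7L2 had the most reads of all members, 1563 in 65 replicate 2 clusters, and no passing cluster. Of these reads 1379 were in intervals that are also listed under FMC1, the neighbouring gene, or under the FMC1-LUC7L2 readthrough gene, so they cannot be given to LUC7L2 with certainty. Its 71 replicate 1 clusters, of which 70 lie in the span of another gene as well, had a median log2 fold of 0.41 and ranged from −4.09 to 2.51, with 28 below 0. The 5' end, where 807 reads (51.6%) lay in 5 clusters that are also named for FMC1, held 3 replicate 1 clusters with log2 folds from −4.09 to −2.49. The reads that went with these low folds therefore cannot be given to LUC7L2 rather than to FMC1.

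SNRNP70 encodes the U1-70K protein, which binds U1 snRNA. It held 603 reads in 18 replicate 2 clusters (26.0 per kilobase), and its 18 replicate 1 clusters had a median log2 fold of 1.00 with none below 0. Its 2 passing clusters had log2 folds of 3.10 and 3.65, and neither was met by a replicate 2 cluster. SNRPA and SNRPC, which encode the U1 proteins A and C, had 43 and 30 reads and no passing cluster. Their replicate 1 medians were 0.41 over 5 clusters and −0.12 over 2, the lowest of the subcomplex beside LUC7L2.

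The Sm ring was the subcomplex with the lowest folds and no passing cluster in any of its 7 genes. SNRPB, SNRPD1, SNRPD2, SNRPD3, SNRPE, SNRPF and SNRPG encode the 7 proteins that close around Sm-site RNA. Their reads ranged from 26 for SNRPD3 to 77 for SNRPD1, with 73 for SNRPD2, so none reached 100. Over the 36 replicate 1 clusters the median log2 fold was 0.23 (exact 95% interval −0.40 to 1.19), and 16 of 36 (44.4%) were below 0, against 11.0% of clusters in all genes. SNRPD1, SNRPD2 and SNRPF had negative medians of −0.43, −1.13 and −1.01.

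SNRPG differed from the rest of the ring, with 14 of the 36 clusters, a median of 1.19 and a highest log2 fold of 3.77 at a −log10 p of 2.97, just short of the minimum of 3. Without SNRPG the median of the other 22 clusters was −0.35, so the sign of the Sm ring median rested on this gene. Some small snRNP proteins have many pseudogenes in the genome. Of 70 pseudogenes of 18 members in GENCODE v44, 20 belong to SNRPG, 18 to the U1 gene SNRPC and 10 to SNRPE, whereas SNRPD1 and SNRPD3 have 0, and none had a replicate 2 cluster named for it. Whether reads of the copies were counted in the parent genes was not tested, and the values of these genes are uncertain to that extent. SNRPB values further rest on 4 replicate 1 clusters, because 2 of its 6 lie in the span of another gene as well.

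Among U2 snRNP genes, SF3A2 and SF3A3 had the most reads, and passing clusters lay in SF3A2, SF3A3 and SF3B4. SF3A1, SF3A2 and SF3A3 form SF3a, which together with SF3b helps the U2 snRNP to engage the branch point. SF3A3 held 147 reads and SF3A2 held 141, whereas SF3A1 held 60, with a median log2 fold of 1.27 and no passing cluster. SNRPA1, the U2 protein A', held 81 reads with a median of 1.86 and no passing cluster. SF3A3 had 16 replicate 1 clusters with a median log2 fold of 0.95, and its 2 passing clusters reached 4.28 and 4.58. The cluster at 4.28, on chromosome 1 from 38455119 to 38455183, was met by a replicate 2 cluster of 11 reads, the most at any passing cluster outside LUC7L. SF3A2 had a median of 2.26 over 9 clusters and 1 passing cluster (log2 fold 3.23, −log10 p 7.71), met by no replicate 2 cluster.

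SF3B4, an SF3b subunit that contacts RNA near the branch point, had 15 reads and 1 passing cluster at a log2 fold of 4.00, also not met. SF3B5, a small SF3b subunit, had the fewest reads of the subcomplex with 10, in 1 cluster, and its single replicate 1 cluster was at −1.40. The subcomplex as a whole had 4 passing clusters among 58 (6.90%) and a median log2 fold of 1.61 (exact 95% interval 0.87 to 2.10).

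The tri-snRNP and B complex genes held 38 of the 52 passing clusters. These lay in 7 of the 15 genes and made up 12.7% of the subcomplex's 299 replicate 1 clusters. The median log2 fold was 1.93 (exact 95% interval 1.77 to 2.19), and 9 of 299 (3.01%) were below 0. No gene of the group had a reproducible peak.

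SART1, a tri-snRNP protein that is needed for the tri-snRNP to join the spliceosome, had the highest median of all members. Its 17 replicate 1 clusters had a median log2 fold of 3.77 and a lowest of 0.93. Of these 11 passed, with log2 folds from 3.10 to 5.51, and 98.7% of all genes had fewer. The cluster at 5.51, the highest in any member, lay on chromosome 11 (plus strand) from 65732100 to 65732193 with a −log10 p of 11.9, directly followed by a cluster from 65732194 to 65732258 at 4.94. All 11 had their midpoints within 5746 bp of the 5' end of a span of 15011 bp.

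Replicate 2 showed little at SART1, where 66 reads were spread over 11 clusters of 3 to 9 reads. Of the passing clusters 4 were met by a replicate 2 cluster of 4 to 7 reads and 7 were not. The cluster at 5.51 was among those not met. Among 140 genes with as many passing clusters as SART1 or more, 49 had no reproducible peak.

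PRPF8, the U5 protein at the heart of the catalytic centre, had the most passing clusters of the members, 13 of 43, and 99.1% of all genes had fewer. Their log2 folds ranged from 3.10 to 4.89, with −log10 p from 3.08 to 8.58, and the gene's median was 2.19. In replicate 2 it held 205 reads in 21 clusters, and 3 of the passing clusters were met, by clusters of 4 to 9 reads. Of 99 genes with 13 or more passing clusters, 37 had no reproducible peak. For both SART1 and PRPF8 the high folds were thus measured in replicate 1 and met by few reads in replicate 2.

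Other tri-snRNP proteins tied to U5 had fewer passing clusters than PRPF8. SNRNP200, the helicase Brr2 that unwinds U4 from U6, held 391 reads, the most of the subcomplex. Its median log2 fold was 1.77 over 32 clusters, and its 5 passing clusters at 3.19 to 4.71 were all unmet by replicate 2. EFTUD2, the U5 GTPase Snu114, held 217 reads, a median of 1.30 over 28 clusters and 1 passing cluster at 3.83, met by 5 reads. PRPF6, which bridges U5 and U4/U6, held 61 reads and a median of 2.36 over 17 clusters. Its 4 passing clusters, at 3.36 to 4.51, lay side by side on chromosome 20 from 62659341 to 62659861, and 1 was met, by a cluster of 4 reads.

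Among the other genes of this subcomplex, PRPF4B, a kinase of the B complex, had the next most reads after SNRNP200 with 355. Its median was 2.00 over 40 clusters, and it had 2 passing clusters at 3.19 and 4.10, 1 of them met, by 7 reads. PRPF3, a U4/U6 protein, had 102 reads, a median of 2.19 and 2 passing clusters at 3.19 and 3.36, 1 of them met, by 7 reads. TXNL4A, the small U5 protein Dib1, had the fewest reads with 16 and a single replicate 1 cluster at 1.19. PRPF38B, a relative of yeast Prp38, had 218 reads and no passing cluster. Its highest log2 fold was 3.77 at a −log10 p of 2.97, just short of the minimum, and its 1 cluster above that minimum had a log2 fold of 1.77.

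**Figure D3:**
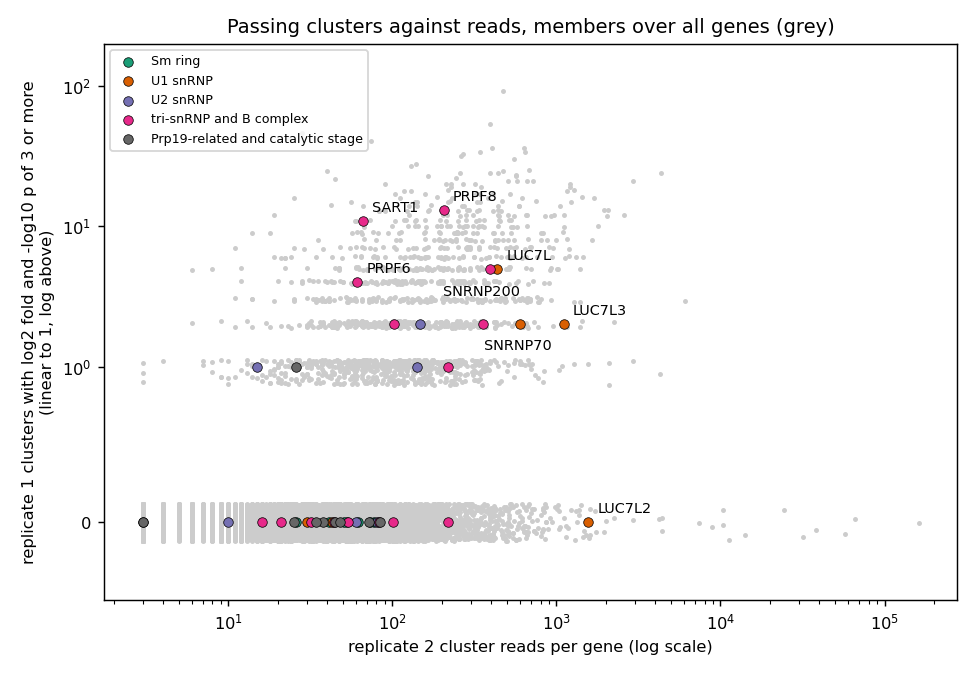
Passing replicate 1 clusters per gene are plotted against replicate 2 reads per gene on log scales, the vertical axis being linear below 1, with members coloured by subcomplex and all other genes in grey with small random vertical offsets for display. SART1 has 11 passing clusters at 66 reads and PRPF8 13 at 205, whereas LUC7L2 has 0 at 1563. Of the LUC7L2 reads, 1379 are in intervals also listed under another gene.

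Prp19-related and catalytic stage genes had low coverage and 1 passing cluster. Their median was 36 reads per gene and none reached 100, the highest being AQR, an intron-binding helicase, with 84, and CDC5L, a scaffold of the Prp19 complex, with 72. The lowest were CRNKL1 and BUD13 with 1 cluster of 3 reads each and no replicate 1 cluster. AQR and CDC5L had medians of 1.77 over 29 clusters and 1.67 over 36, with no passing cluster. The passing cluster was in XAB2, an AQR partner, on chromosome 19 from 7692386 to 7692457, with a log2 fold of 3.77 and a −log10 p of 5.91, met by a replicate 2 cluster of 5 reads.

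Although passing clusters were rare in this subcomplex, its median fold matched that of all members. The median log2 fold over its 137 clusters was 1.77 (exact 95% interval 1.45 to 1.77), equal to that of all members, and 8 (5.84%) were below 0. This value was the commonest log2 fold in the members, held by 65 of 640 clusters. Equal medians therefore do not show equal enrichment. Only 1 of the 137 had a −log10 p of at least 3, compared with 59 in the tri-snRNP and B complex genes, 24 in U1, 7 in U2 and 0 in the Sm ring. Across all members 32 clusters had a log2 fold of at least 3 with a −log10 p below 3. Counting those, 24 members had a cluster of log2 fold 3 or more, 10 of them without a passing cluster.

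Across the subcomplexes the median log2 fold over clusters was lowest in the Sm ring and highest in the tri-snRNP and B complex. The interval for U2 overlapped those of all other subcomplexes, and those of U1 and the Prp19-related genes overlapped each other. The intervals of the Sm ring and U1 touched at 1.19. Those of the Prp19-related genes and the tri-snRNP and B complex touched at 1.77. With each gene counted once, the tri-snRNP and B complex and the Prp19-related genes had the same median, 1.77, so their order depended on the counting of clusters. The median over all members was 1.77 (exact 95% interval 1.60 to 1.77) against 1.51 in all genes, and 6.56% of clusters were below 0 against 11.0%. These intervals treat clusters as independent, although clusters of 1 gene share a transcript, and cover neither replicate error nor the choice of genes. Replicate 1 folds took few values. The 640 clusters held 162 distinct log2 folds, and 1.77 alone occurred 65 times.

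SART1 and PRPF8 accounted for part of the difference. Leaving SART1 out, the tri-snRNP and B complex median was 1.88, and leaving out both it was 1.77 with 14 passing clusters among 239 (5.86%). Without both genes the members together had a median of 1.60 and 28 passing clusters among 580 (4.83%), below the 5.67% of all genes. Leaving out the genes with the most passing clusters lowers the share of the members by construction. The 5.67% of all genes keeps its own genes with 10 or more passing clusters (1.54% of genes). These values therefore show how concentrated the members' passing clusters were, and the 2 shares are not counted alike.

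**Figure D4:**
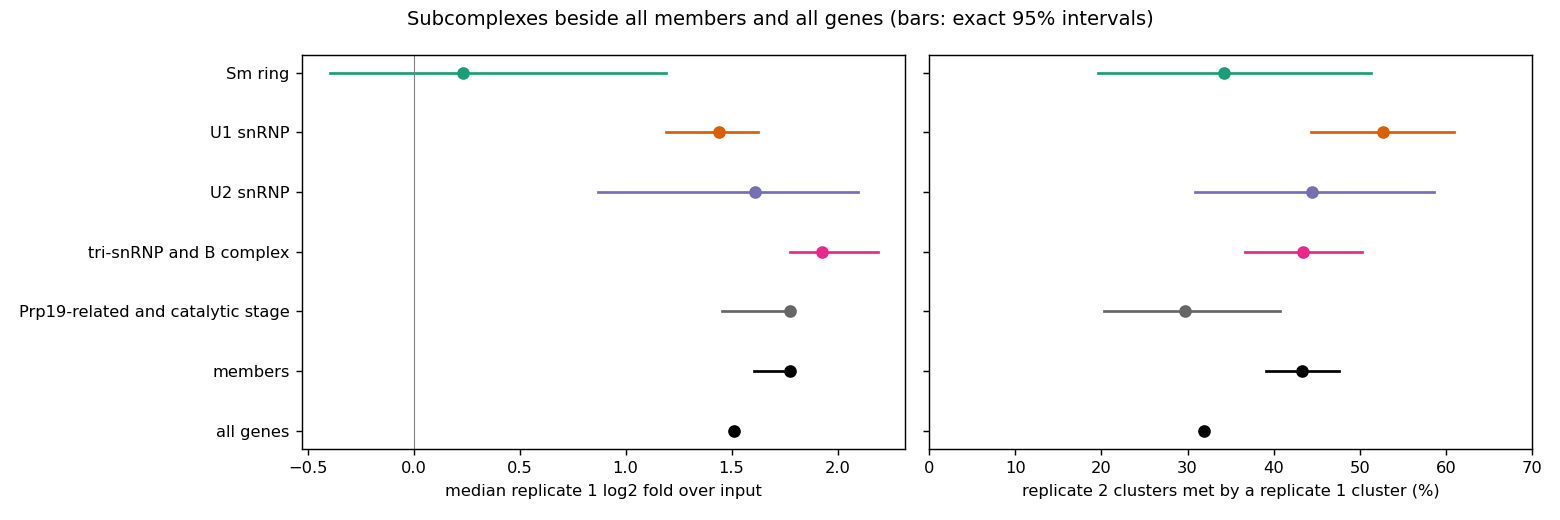
The left panel gives the median replicate 1 log2 fold over the input and the right panel the percentage of replicate 2 clusters met by a replicate 1 cluster, for each subcomplex, all members and all genes, with exact 95% intervals as bars. The Sm ring median of 0.23 lies left of the others, and the U1 share of 52.7% is the highest.

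Over all replicate 2 clusters, overlap with replicate 1 was more frequent in the members than in all genes, but not over those with the strongest p. Of 543 replicate 2 clusters in the members, 235 (43.3%, exact Clopper-Pearson 95% interval 39.1 to 47.6) overlapped a replicate 1 cluster, against 31.9% (31.6 to 32.1) of the clusters of all genes. The share was highest in U1 with 52.7% (44.3 to 61.0) and lowest in the Prp19-related genes with 29.8% (20.3 to 40.7). Within U1 it ranged from 20.0% in SNRPC to 92.3% in LUC7L3, where 24 of 26 clusters were met. The U1 share, 78 of 148 clusters, thus rested in part on LUC7L3. Of the 148, 53 were LUC7L2 intervals also listed under another gene. U2, tri-snRNP and Sm ring genes stood at 44.4%, 43.4% and 34.2%. The median cluster in the members had 8 reads and in all genes 5. Among replicate 2 clusters with a caller p of at most 1e-05 the order turned, with 57.6% met in the members against 63.8% in all genes. These intervals cover counting error only.

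Counted from replicate 1, passing clusters of the members were met no more often than their clusters in general. Of the 52, 17 (32.7%, exact Clopper-Pearson 95% interval 20.3 to 47.1) were met by a replicate 2 cluster and 35 were not, beside 209 of all 640 (32.7%, 29.0 to 36.4). In all genes the shares were 40.5% of passing clusters (2639 of 6519) and 29.3% of all clusters, and the interval of the members' passing clusters includes the former. The replicate 2 clusters that met them had 4 to 81 reads, with a median of 7. The number of clusters per gene was similar in order between the replicates (Spearman's rho 0.93 over 44 members, which share gene length and transcript level). Reads per gene went less closely with the median log2 fold (rho 0.14 over 42 members) than the number of exons did (0.56 over 42). These values describe genes of the same libraries and are not tests.

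Other spliceosome genes, a list of 66 that are not members, differed in their peaks. A replicate 2 cluster was found by GENCODE v44 identifier for 61 of them. Of the 61, 11 (18.0%) had a reproducible peak, with 24 peaks in all, against 1 of 44 members and 4.07% of all genes. Genes with a passing cluster were similarly frequent as among members, 20 of 61 (32.8%). The median log2 fold was the same at 1.77, which as the commonest value does not show equal enrichment. Passing clusters made up 12.1% of replicate 1 clusters in these genes against 8.13% in the members. A −log10 p of at least 3 was reached by 24.8% against 14.2%. Of the 110 passing clusters 59 were met by replicate 2, beside 17 of 52 in the members. Peaks were most frequent in a group of SF3b, U2AF and related genes of the 3' splice site machinery, 5 of 9. The 5 were SF3B1, U2AF1, U2AF2, SF1 and DDX46. SF3B2, SF3B3, SF3B6 and PHF5A of the group had no peak, nor had the SF3b subunits among the members, SF3B4 and SF3B5. The group's count is therefore not a trait of SF3b. Peaks were absent from 11 Lsm and U4/U6 genes and 7 genes of the minor spliceosome. Depth differed in the same order. The group of SF3b, U2AF and related genes had a median of 297 reads, and 7 of 9 had at least 100. Among the Lsm and U4/U6 genes 4 had at least 100 reads, and among the minor spliceosome genes 0. Whether depth accounts for the difference in peaks was not tested. PPIL2, a cyclophilin of the B complex, had 8 peaks with log2 folds from 3.06 to 4.19. U2AF1, the small subunit of the factor that binds the 3' splice site, had 6 at 3.19 to 5.01, and ACIN1, an exon junction complex component, had 2 at 3.33 and 3.40. The other 8 genes had 1 each. The lowest medians in this list were 0.87 in the minor spliceosome genes, with 8.89% of clusters below 0, and 1.19 in the Lsm and U4/U6 genes, with 26.4% below 0. None of these differences was tested, since the lists were chosen with earlier results known.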

How the data were processed

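RBM17 eCLIP was analysed in 2 replicates with 1 size-matched input. The authors processed reads with a published eCLIP pipeline, and the submitters' processing notes name cutadapt and STAR, with versions not given in the sources used here. The deposited replicate 1 clusters carry a −log10 p (limited to 400) and a log2 fold over the input. The deposited replicate 2 clusters carry a p-value of the peak caller, at most 0.05, and a name made by the authors from a gene and a number of reads. The deposited reproducible peaks carry a log2 fold for both replicates together and a −log10 p. In LUC7L the peak values of 17.4, 7.72 and 4.73 equal those of replicate 1 alone. At the other LUC7L peak the value is lower than in replicate 1 (3.78 against 8.00). The −log10 p of a peak is therefore not read here as evidence combined over the replicates. Positions are hg19, judged from their range (largest on chromosome 1, 249211903), and are given 1-based.

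Symbols were matched to Ensembl identifiers, gene lengths and exons in GENCODE v44. Overlaps needed 1 bp on the same strand. A replicate 1 cluster was given to a gene when it lay in the span of exactly 1 gene, which held for 83.8%. Labels number the replicates 1 and 2 in the descriptions but otherwise in the titles. Peak regions are those of the study's peak annotation, whose values were not used. Medians carry exact order-statistic 95% intervals, and shares exact Clopper-Pearson intervals. Python 3.11.15, pandas 2.3.3, numpy 2.4.6, scipy 1.17.1 and matplotlib 3.10.9 were used, and the assignment was tested on simulated data.

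With 1 fold-bearing replicate no test between samples could be made, and all comparisons with other genes are descriptions. The members, subcomplexes and lists were chosen with earlier results of these data known. Named with values were members with a peak or passing cluster and, in each subcomplex, the 2 with the most and the 1 with the fewest reads. Values of SNRPA, SNRPB, SNRPE, SNRPF, SNRPG, SNRPA1, SF3A1 and PRPF38B lie outside this rule and were chosen after their values were seen. Sequences of the peaks were not analysed here. Alternatives were stricter and looser thresholds, other overlap and gene rules, and, chosen after seeing the data, leaving out SART1, PRPF8 or SNRPG.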

Additional observations from a re-analysis of the deposited data

How the results depend on the processing

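The count of 1 member with a reproducible peak was the same under all 4 alternatives tried for it. Each of these kept a part of the same peaks or genes, so it could leave the count or lower it but not raise it. Members with a passing cluster fell from 14 to 8 at a log2 fold of at least 4 (all genes 8.75%) and to 9 when the cluster had to overlap a replicate 2 cluster (all genes 10.3%). The median of 60.5 reads per member became 36 over clusters with p at most 1e-05 and 12 for the largest cluster. The share of replicate 2 clusters met became 33.7% at 50% overlap and 57.6% at p at most 1e-05, where all genes had 24.8% and 63.8%, so in the latter the members no longer exceeded all genes. The median log2 fold over member clusters became 3.19 at a −log10 p of at least 3 (all genes also 3.19), 1.54 with each gene counted once (all genes 1.30) and 1.49 for clusters met by replicate 2 (all genes 1.36), and that of the best cluster per member, 4.10, became 3.19 without a minimum of p. With each gene counted once the U1 median became 0.96, and the tri-snRNP and B complex median of 1.77 equalled that of the Prp19-related genes. At a −log10 p of at least 3 the medians were 2.57 for U1, 3.23 for U2, 3.28 for the tri-snRNP and B complex and 3.77 for the Prp19-related genes, while the Sm ring had no such cluster and gave no value. Raising the minimum of p keeps clusters of higher fold by construction. The Sm ring median reversed to −0.35 without SNRPG. Of 38 alternatives, 22 left the value within its interval or the count within 1.5 times.

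No values by leaving out a replicate were possible, because folds rest on replicate 1 alone, reads on replicate 2 alone, and peaks on both. No paired analysis was possible because no result comes from a test between groups with replicates. The depth of replicate 1 is unknown, so how far it limits calls was not tested.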

Other observations

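Replicate 1 held 0 clusters on the opposite strand within the spans of the 44 members, and 615 in the spans of all 10872 genes. At that rate few would be found in 44 genes, so the 0 does not set the members apart. SNRNP27 overlaps the span of MXD1, so 7 of its 9 replicate 1 clusters were used.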
